A study of Mus musculus and Acomys cahirinus with 84 samples.

Results

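The genes described here are 44 interferon-stimulated genes, listed by symbol, in primary skin fibroblasts after gamma irradiation. All 44 had a row in the mouse count table of 56980 genes, and 39 of them had a row in the table of 19818 genes of the African spiny mouse, *Acomys cahirinus* (A. cahirinus). The 5 without a row there were Oas1a, Mx1, Mx2, Gbp3 and Sp100, which were not analysed in that species. The fibroblasts came from 3 populations: mice labelled C56BL6, wild mice, and A. cahirinus. In each population 4 numbered replicates received 0 Gy (untreated), 10 Gy or 20 Gy and were collected after 24 h or 12 d. At 12 d there was also a group labelled untreated and passaged, which gives 7 groups per population and 84 libraries in all. No transgene, allele or further agent is named for any group, and the library names give each replicate number 1 animal code within a population. All 24 h libraries carry one batch label and all 12 d libraries another. The effect of time cannot be told apart from that of the batch, and nothing was tested between the 2 times.

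Interferons are secreted cytokines that cells release when they sense foreign or misplaced nucleic acid. Binding to their receptors activates the kinases Jak1 and Tyk2. These activate Stat2, which acts in a complex with Irf9 on a promoter element called the interferon-stimulated response element (ISRE). The induced genes encode proteins that block viral RNA translation and replication, sense further nucleic acid, tag proteins with the ubiquitin-like modifier Isg15, attract immune cells as chemokines, or restrain the response. Fibroblasts respond to type I interferon and can also produce it.

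The assigned reads per library ranged from 26.65 to 39.82 M (C56BL6), 17.42 to 35.98 M (wild mouse) and 25.55 to 52.86 M (A. cahirinus). Levels are given as CPM, counts scaled to 1 M assigned reads, and 3 counts in a library corresponded to 0.0568 to 0.172 CPM. The label of fibroblasts was checked against 8 markers, among them collagens, Pdgfra, Dcn and Lum. At least 7 of the 8 had a mean of 1 CPM or more in every group, and all 8 did in A. cahirinus and in the untreated and irradiated 12 d groups of both mouse populations. The C56BL6 libraries of replicate 1 also held keratinocyte keratins: Krt5 was at 67.2 to 409 CPM and Krt14 at 145 to 415 CPM in its 7 libraries, while no other C56BL6 library exceeded 1.34 CPM of Krt5 or 0.0753 CPM of Krt14. The rest of the 6 keratinocyte markers were low in the C56BL6 groups. Their means were 1.17 to 1.75 CPM for Krt10, 0.119 to 0.502 CPM for Cdh1, and at most 0.138 CPM for Epcam and 0.0483 CPM for Krt1. The wild mouse libraries of replicate 1 did not match between the 2 times, and the counts do not show at which time the label is wrong. Counting genes at 5 CPM or more in every library of one number and at 0.2 CPM or less in every library of another, 29 genes separated wild replicate 1 at 12 d from wild replicate 1 at 24 h, 0 separated it from replicate 4 at either time, and 0 separated the 2 times for replicates 2, 3 and 4. Within the wild mouse groups at 12 d, replicates 1 and 4 differed by 21.6 to 36.6 times sampling noise and every other pair by 92.8 to 573 times. A 0 does not by itself mark a shared animal. It was also found between C56BL6 replicates 3 and 4 at and across both times, and those differed by 7.95 to 18.8 times sampling noise. In A. cahirinus every pair of numbers gave 0 or 1. Whether wild replicates 1 and 4 at 12 d came from separate animals cannot be told from the counts, so p-values that take the 4 as separate may be too small. Wild mouse calls of the members at 12 d are therefore also given without the number 1. Calls of other pathway genes were not read without it. For differences between populations in a change, number 1 was left out only in the fit without the block.

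In the text, a gene rose or fell where the quasi-likelihood test of edgeR, adjusted over all genes tested, gave a value under 0.05. The main test had no block. Because the library names tie each number to 1 animal code and same-numbered libraries deviated together, the test was repeated with the number as a block, and its value is given where it changes a call. Fold changes are on the log2 scale with their standard error (SE), and each compares 4 libraries with 4, except the differences between populations in a change, which draw on 4 groups of 4. These are bulk cultures, so fewer cells of a type and less RNA per cell cannot be told apart.

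The promoters of several of these genes hold letters that match the element through which interferon acts. A few promoters are shown here, chosen with the changes of their genes known: 5 genes that rose in C56BL6 cells 12 d after 10 Gy and 2 that fell. RefSeq promoters (table build GRCm38.p6, 250 bases before to 50 after the start) were available for 34 of the 44 genes and were searched on both strands for an ISRE-like core (GAAA, any 2 bases, GAAA), for its longer form with CT added at the end, and for TTCNNNGAA, a gamma-interferon activated site (GAS)-like palindrome. In the windows below, capitals mark the first match, and further matches (Ifit1 has 2 in its promoter and Isg15 has 3) stay in lower case. Ifit1, Ifit3 and Cxcl10 hold the longer form, Isg15 and Stat2 the core, and Irf1 and Isg20 the GAS-like palindrome with no ISRE-like match. The matches of Ifit1, Ifit3 and Stat2 lie on the strand opposite to the gene, so the motif reads as its reverse complement. Each window was found unchanged in GRCm39.
Ifit1, chr19:34618158-34618219, plus strand: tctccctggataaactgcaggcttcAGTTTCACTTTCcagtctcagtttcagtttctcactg
Ifit3, chr19:34560746-34560807, plus strand: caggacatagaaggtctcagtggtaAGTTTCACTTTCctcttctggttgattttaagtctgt
Cxcl10, chr5:92496925-92496986, minus strand: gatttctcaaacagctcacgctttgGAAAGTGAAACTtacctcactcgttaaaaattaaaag
Isg15, chr4:156285319-156285378, minus strand: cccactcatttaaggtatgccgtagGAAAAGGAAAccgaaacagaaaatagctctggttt
Stat2, chr10:128106120-128106179, plus strand: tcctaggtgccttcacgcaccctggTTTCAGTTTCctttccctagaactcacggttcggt
Irf1, chr11:53660726-53660784, plus strand: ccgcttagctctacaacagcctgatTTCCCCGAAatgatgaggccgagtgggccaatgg
Isg20, chr7:78563074-78563132, plus strand: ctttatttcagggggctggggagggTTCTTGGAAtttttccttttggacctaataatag
The first matching base lies 106 bases before the start in Ifit1, 158 in Ifit3, 213 in Cxcl10, 78 in Isg15, 222 in Stat2, 90 in Irf1 and 73 in Isg20. The core was present for 16 of the 34 genes (47.1%), against 3.99% of all 27025 genes in the table. The longer form was present in 9 (26.5%, against 0.303%), and the GAS-like palindrome in 7 (20.6%, against 9.55%). The 16 with the core were Ifit1, Ifit3, Ifit3b, Isg15, Stat2, Oas1a, Oas3, Rsad2, Ifih1, Bst2, Irgm1, Gbp2, Gbp3, Lgals9, Cxcl10 and Eif2ak2. The 7 with the palindrome were Ifit2, Isg20, Irf1, Oas1a, Bst2, Ifi35 and Eif2ak2. The palindrome did not divide the genes by direction: Ifit2 and Ifi35 hold it without the core and rose in C56BL6 cells at 12 d. Irf1 and Isg20, the 2 that fell there without the block, hold it without the core as well. The core was thus absent from both genes that fell, but Gbp2 and Lgals9 hold it and did not pass without the block. With the block Gbp2 rose at 10 Gy. A match is a description of these letters and not a measured binding site.

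In C56BL6 fibroblasts, most of these genes were higher 12 d after irradiation than in untreated cells of the same day. At 10 Gy, 32 of the 43 members tested rose and 2 fell, beside 10.3% and 10.6% of all 14894 genes tested. At 20 Gy, 20 of 43 rose and 2 fell, beside 13% and 13.6% of 15119 genes. The median log2 fold change of the tested members was 1 at 10 Gy and 0.85 at 20 Gy, while that of all genes was -0.0105 and -0.0133. Both doses were set against the same 4 untreated libraries. Oas3, Oasl1, Rsad2 and Cxcl10 are among the members that rose at each dose. They did not pass the expression filter on the untreated 12 d libraries of the mouse populations, so they entered through the irradiated libraries, where they were high. Those that rose at 10 Gy and did not pass at 20 Gy were Stat2, Irf9, Ifit3b, Oas1a, Herc6, Trim25, Ifih1, Dhx58, Gbp3, Ifi47, Parp14 and Xaf1, and the difference between doses is tested further on. With the replicate block, 37 rose and 2 fell at 10 Gy (19.2% and 19.7% of all genes), and 32 rose and 3 fell at 20 Gy (23.2% and 24.3%). The 20 Gy count went up to 34 without replicate 1, which held the keratins, beside 40% of all genes in either direction. It went down to 7 without replicate 2, 1 without replicate 3 and 4 without replicate 4, beside 10.9%, 7.18% and 10.7%. At 10 Gy the count was 40 without replicate 1 (beside 35.7%), 19 without replicate 2 (7.28%), 11 without replicate 3 (1.9%) and 17 without replicate 4 (6.11%).

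**Figure D1:**
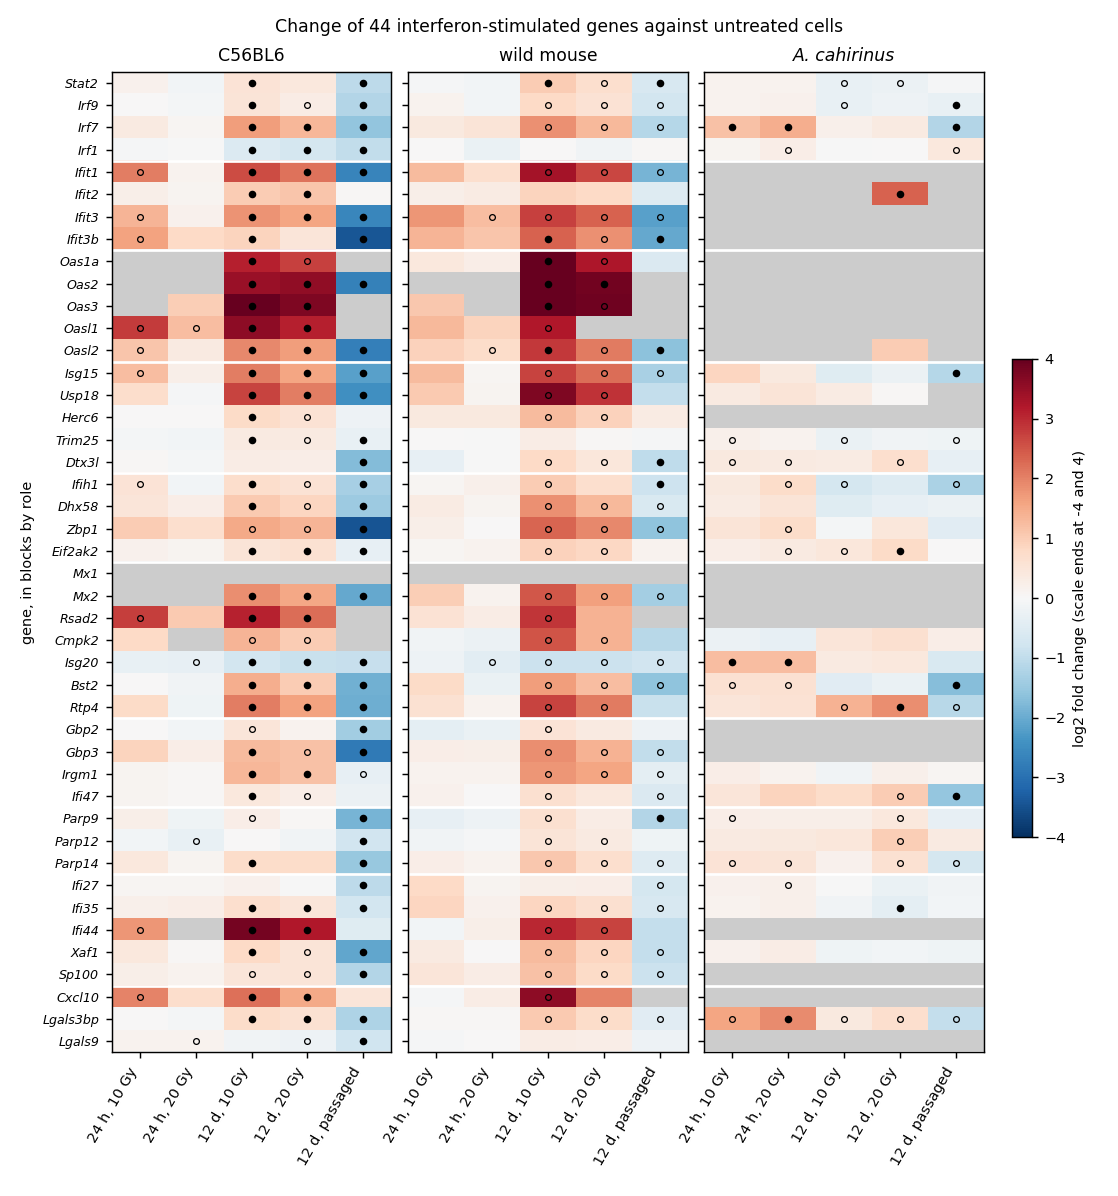
Log2 fold change (colour, scale ending at -4 and 4) of each of the 44 genes (rows, in blocks by role) against untreated cells of the same time, for 5 treatments (columns) in the 3 populations. Filled dots mark genes called without a block, open dots genes called only with the replicate block, and grey cells genes not tested. The 12 d irradiated columns of both mouse populations are mostly red and the passaged column of C56BL6 mostly blue, while Isg20 is blue in each of these.

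The IFIT proteins bind viral RNA that lacks the cap methylation of the cell's own messages. Ifit1 was at 8.9, 10.6, 6.92 and 8.83 CPM in the untreated 12 d C56BL6 libraries, at 47, 61.9, 60.2 and 65.6 CPM after 10 Gy, and at 11.2, 42.5, 49.5 and 68.3 CPM after 20 Gy. Every irradiated library lay above every untreated one, but the 20 Gy library of replicate 1 came close to them. The fold change of Ifit1 was 2.61 ± 0.15 at 10 Gy (adjusted p = 0.00068), a 6.11-fold rise, and 2.17 ± 0.47 at 20 Gy (adjusted p = 0.0128). Ifit3 rose by 1.81 ± 0.23 and 1.57 ± 0.32, and Ifit2 by 1 ± 0.26 and 1.1 ± 0.26. Ifit3b, a near-identical copy of Ifit3 whose reads the counting could split, rose at 10 Gy (0.89 ± 0.23) and was at 0.47 ± 0.27 at 20 Gy (adjusted p = 0.234). All 4 IFIT genes were thus called at 10 Gy and 3 of 4 at 20 Gy.

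The OAS family held 3 of the 4 largest fold changes at each dose, beside Ifi44 (3.84 ± 0.65 at 10 Gy). These proteins make a short oligoadenylate that switches on an RNA-cutting enzyme. Oas2 was at 1.02 to 2.43 CPM in untreated cells, at 14.8, 21.6, 28.8 and 24.3 CPM after 10 Gy and at 6.04, 14.8, 25.8 and 49.4 CPM after 20 Gy, so the groups did not overlap. Oas3 rose by 4.2 ± 0.62 at 10 Gy (18.4-fold, adjusted p = 0.00448) and by 3.74 ± 0.67 at 20 Gy, from levels near the counting floor. Oasl1 rose by 3.59 ± 0.33 and 3.1 ± 0.37, and Oasl2 by 1.93 ± 0.16 and 1.66 ± 0.44. Oas1a reached the threshold at 10 Gy (3.11 ± 0.94, adjusted p = 0.0498) and at 20 Gy only with the block (3.35 ± 0.89, adjusted p = 0.0216; 2.72 ± 0.95 and adjusted p = 0.0661 without it). The OAS1 genes are near-identical copies, so the share of each is uncertain.

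Isg15 is the ubiquitin-like protein that is attached to other proteins during the response, and Usp18 removes it and damps receptor signalling. Isg15 was at 5.47 to 11.1 CPM in untreated libraries, at 28.6 to 40.1 CPM after 10 Gy and at 12, 24.3, 30.6 and 33 CPM after 20 Gy. Its fold change was 2.05 ± 0.22 at 10 Gy (adjusted p = 0.00211) and 1.59 ± 0.34 at 20 Gy (adjusted p = 0.0125). Usp18 was at 6.2 CPM in the untreated library of replicate 1 and at 1.14 to 1.84 CPM in the other three, against 15.5 to 27.1 CPM after 10 Gy and 8.01 to 14 CPM after 20 Gy. It rose by 2.71 ± 0.55 and 2.05 ± 0.54. The ligase genes moved less: Herc6 rose by 0.75 ± 0.16 and Trim25 by 0.36 ± 0.11 at 10 Gy, while Dtx3l was at 0.3 ± 0.12 (adjusted p = 0.0964).

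Among the transcription factors, Irf7, which amplifies the production of type I interferon, rose, and Irf1, a factor also driven by gamma-interferon, fell. Irf7 was at 8.53 to 12.1 CPM in untreated libraries, at 31.3 to 39.8 CPM after 10 Gy and at 14.4, 28.2, 29.4 and 43.2 CPM after 20 Gy. Its fold change was 1.67 ± 0.12 at 10 Gy (adjusted p = 0.000784) and 1.32 ± 0.3 at 20 Gy (adjusted p = 0.0141). Stat2 and Irf9, members of the complex that binds the ISRE, rose at 10 Gy by 0.54 ± 0.09 and 0.5 ± 0.12. At 20 Gy Stat2 spread from 54 to 129 CPM around an untreated range of 53.4 to 71.2 CPM and did not pass the test (0.41 ± 0.24, adjusted p = 0.239). Irf1 was at 37.9, 24.9, 26.4 and 32.1 CPM in untreated libraries, 21 to 25.2 CPM after 10 Gy and 17.3 to 25.9 CPM after 20 Gy. It fell by 0.55 on the log2 scale at 10 Gy (SE 0.14, adjusted p = 0.0304) and by 0.71 at 20 Gy (SE 0.18, adjusted p = 0.0217), in 4 of 4 numbers at each dose. Of the exon bases of Irf1, 20% overlap another gene, as do 16.8% in Ifi35, 13.9% in Rtp4 and 13.7% in Herc6, and reads in such stretches were not assigned.

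The effectors split in the same way. Rsad2 (viperin), which makes a chain-terminating nucleotide, rose by 3.09 ± 0.42 at 10 Gy and 2.24 ± 0.51 at 20 Gy, and Mx2, a dynamin-like GTPase, by 1.85 ± 0.24 and 1.56 ± 0.38. Bst2 (tetherin), which holds budding virions at the surface, had a mean of 28.3 CPM in untreated cells, 84 CPM after 10 Gy and 62 CPM after 20 Gy. Rtp4 rose by 2.06 ± 0.19 and 1.61 ± 0.34. Isg20, an exonuclease of single-stranded RNA, was lower in every irradiated library: it was at 42, 27.4, 27.8 and 29.6 CPM untreated, 19.4 to 24.3 CPM after 10 Gy and 15.2 to 22.3 CPM after 20 Gy. It fell by 0.73 at 10 Gy (SE 0.16, adjusted p = 0.0168) and by 0.9 at 20 Gy (SE 0.17, adjusted p = 0.00826). Mx1, the relative of Mx2, had 15 to 45 counts over the 4 libraries of each of these groups and did not pass the expression filter.

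The remaining groups are sensors, GTPases, poly-ADP-ribose polymerases and secreted proteins. Among the sensors, which recognise double-stranded or Z-form nucleic acid, Ifih1 (MDA5) rose by 0.71 ± 0.17, Dhx58 (LGP2) by 1.04 ± 0.17 and Eif2ak2 (PKR) by 0.52 ± 0.1 at 10 Gy, while Zbp1 was called only with the block (1.57 ± 0.15, adjusted p = 0.000264; 1.51 ± 0.51 and adjusted p = 0.0666 without it). The GTPases Irgm1, Gbp3 and Ifi47, of families that act against pathogens inside cells, rose at 10 Gy by 1.34 ± 0.15, 1.28 ± 0.29 and 0.42 ± 0.12. Of the PARP genes only Parp14 was called without the block (0.73 ± 0.2 at 10 Gy), and Parp12 stood at 0.01 ± 0.1. Lgals3bp, a secreted glycoprotein, was at 129 to 178 CPM in untreated libraries and at 255 to 287 CPM after 10 Gy, and rose by 0.74 ± 0.1 there and by 0.61 ± 0.16 at 20 Gy. Cxcl10, a chemokine for T cells, rose by 2.21 ± 0.43 and 1.51 ± 0.38 from a mean of 0.338 CPM. Lgals9 (-0.15 ± 0.24 at 10 Gy, adjusted p = 0.695) and Ifi27 (0.16 ± 0.08, adjusted p = 0.21), which per length were the most abundant members in untreated cells at 106 and 82.2 CPM per kb, did not pass the test.

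Markers of other cells were read in the same 12 d C56BL6 libraries. The 8 fibroblast markers summed to 25500 to 46100 CPM per library untreated, 10100 to 12600 CPM after 10 Gy and 8970 to 13500 CPM after 20 Gy, with Col3a1 at means of 16870, 2385 and 2517 CPM and Lum at 61.7, 5.6 and 4.42 CPM. The 7 macrophage markers summed to 12.8 to 40.6 CPM per library untreated, 26.5 to 42.9 CPM after 10 Gy and 28.5 to 41.3 CPM after 20 Gy. Their rise in the mean came from Csf1r (6.2, 17.6 and 16.3 CPM), while Ptprc, Adgre1 and Tyrobp were at 0.0939 CPM or less in these groups. The 6 keratinocyte markers summed to 1.42 to 826, 3.08 to 215 and 2.87 to 276 CPM per library, with replicate 1 the highest each time and Krt1 at means of 0, 0.0426 and 0.0483 CPM. The 4 endothelial markers summed to 6.12 to 18.7, 7.23 to 27.5 and 8.13 to 33.5 CPM per library, and Pecam1 among them had means of 0.097, 0.737 and 1.19 CPM. Mitochondrial genes took 1.27 to 1.42% of the counts untreated, 1.78 to 1.97% after 10 Gy and 1.85 to 2.36% after 20 Gy, and 20618 to 21453, 23542 to 24323 and 24466 to 25727 genes had a count. Mki67, a proliferation marker, had means of 22, 14.2 and 8.1 CPM. Their part in the changes was not tested. Without replicate 1 the fold change of Ifit1 at 20 Gy was 2.49 and that of Isg15 was 1.84.

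In wild mouse fibroblasts the same genes were again higher at 12 d, but the replicates differed more and few passed the test without the block. At 10 Gy 6 of 43 members rose and 0 fell, beside 0.174% and 0.0903% of all 14391 genes. At 20 Gy 1 of 42 rose and 0 fell, beside 0.0278% and 0.0417% of 14399 genes. The median log2 fold change of the members was 1.67 at 10 Gy and 1.07 at 20 Gy, and 42 of 43 and 40 of 42 were above 0. Oas3, Oasl1, Rsad2 and Cxcl10 did not pass the filter on the untreated libraries here either, and where tested they entered through the irradiated ones. With the replicate block 37 rose and 1 fell at 10 Gy, beside 5.96% and 6.72% of all genes, and 30 rose and 1 fell at 20 Gy, beside 7.66% and 7.79%. With the block and without the number 1 libraries, which did not match number 1 at 24 h, 28 rose and 1 fell at 10 Gy, beside 2.52% of all genes in either direction, and 17 rose and 0 fell at 20 Gy, beside 2%. Without a block, leaving out replicate 1, 2 or 4 left 0 called at each dose, beside 0% of all genes, and leaving out replicate 3 gave 10 at 10 Gy (beside 0.358%) and 3 at 20 Gy (0.378%). DESeq2 called 30 at 10 Gy and 16 at 20 Gy, beside 4.17% and 4.6% of all genes.

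The 6 called without a block at 10 Gy were Oas2, Oas3, Oas1a, Oasl2, Ifit3b and Stat2. Oas2 was at 0.907, 0.316, 0.397 and 0.631 CPM untreated, at 19.2, 30.9, 7.91 and 25.3 CPM after 10 Gy and at 4.46, 12.4, 5.92 and 12.5 CPM after 20 Gy. Its fold change of 5.06 ± 0.5 (33.3-fold, adjusted p = 0.0169) was the largest of any member against untreated cells, and at 20 Gy it was the 1 member called (3.86 ± 0.47, adjusted p = 0.0481). Stat2, at 46.5 to 63.8 CPM untreated, was at 129, 127, 109 and 133 CPM after 10 Gy and rose by 1.01 ± 0.1 (adjusted p = 0.0159). At 20 Gy its replicate 1 library was at 65.8 CPM and the other three at 104 to 107 CPM, and it was called with the block only (0.65 ± 0.13, adjusted p = 0.0209). With the block and without number 1, Oas2 was at 5.23 and 4.34 and Stat2 at 0.97 and 0.8 at the 2 doses, and each of the other four of these 6 was also called at 10 Gy.

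Ifit1 shows how the animals differed. It was at 9.68, 2.32, 26.1 and 6.57 CPM in the untreated wild libraries, at 121, 81.4, 168 and 106 CPM after 10 Gy and at 39, 52, 143 and 50.6 CPM after 20 Gy. The groups did not overlap, and replicate 3 was the highest in each. The fold change at 10 Gy was 3.33 ± 0.65 without the block (adjusted p = 0.0893) and 3.65 ± 0.3 with it (adjusted p = 0.00167), and 3.7 with the block and without number 1. At 20 Gy these were 2.66 ± 0.73 (adjusted p = 0.179), 2.8 ± 0.32 (adjusted p = 0.00528) and 3.11.

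Isg15, Irf7 and Usp18 followed the same course. Isg15 was at 8.38, 3.47, 22.1 and 5.15 CPM untreated and at 82.2, 29.4, 99.4 and 61 CPM after 10 Gy, a fold change with the block of 2.86 ± 0.21 (adjusted p = 0.00167; 0.135 without). Irf7 was at 10.5, 4.88, 20.6 and 9.8 CPM untreated and at 49.4, 19.2, 54.1 and 54.8 CPM after 10 Gy, where replicate 2 lay below the highest untreated library. Its fold change with the block was 1.87 ± 0.17 (adjusted p = 0.00219; 0.157 without). Usp18, at 0.351 to 3.18 CPM untreated and 15 to 32.8 CPM after 10 Gy, rose by 3.83 ± 0.31 with the block (adjusted p = 0.00167; 0.0529 without). The secreted Cxcl10 and Lgals3bp rose at 10 Gy with the block by 3.54 ± 0.46 and 0.99 ± 0.17. With the block and without number 1, Isg15 (2.75), Irf7 (1.77), Usp18 (3.87) and Cxcl10 (3.34) were still called at 10 Gy, while Lgals3bp (0.93) was not.

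Isg20 fell here too, and only with the block. It was at 43.1, 31.6, 40.2 and 40.1 CPM untreated, 16 to 27.2 CPM after 10 Gy and 16.1 to 27 CPM after 20 Gy, with no overlap. Its fold change was -0.88 ± 0.13 at 10 Gy (adjusted p = 0.0101; 0.0977 without the block) and -0.89 ± 0.13 at 20 Gy (adjusted p = 0.00996; 0.1 without). Without number 1 as well it was -0.91 at 10 Gy and was called, and -0.93 at 20 Gy and was not. Irf1, which fell in C56BL6 cells, had means of 23, 26.1 and 22.5 CPM in the wild mouse groups, and its fold change was 0.02 ± 0.22 at 10 Gy and -0.15 ± 0.24 at 20 Gy (adjusted p = 0.984 and 0.846). The change at 20 Gy was compared between wild and C56BL6 mice as an interaction, and 0 of 43 members passed, beside 0% in either direction of all 15914 genes. DESeq2 also called 0 members, as did the block (0.0628% and 0.0377% of all genes), and 2 had an unadjusted p under 0.05. Leaving out replicate 1 of both populations also left 0 called. The difference was 0.49 ± 0.88 for Ifit1 and 0.63 ± 0.78 for Isg15, so a change larger by 1 log2 unit in wild mice lies within 1 SE of each.

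**Figure D2:**
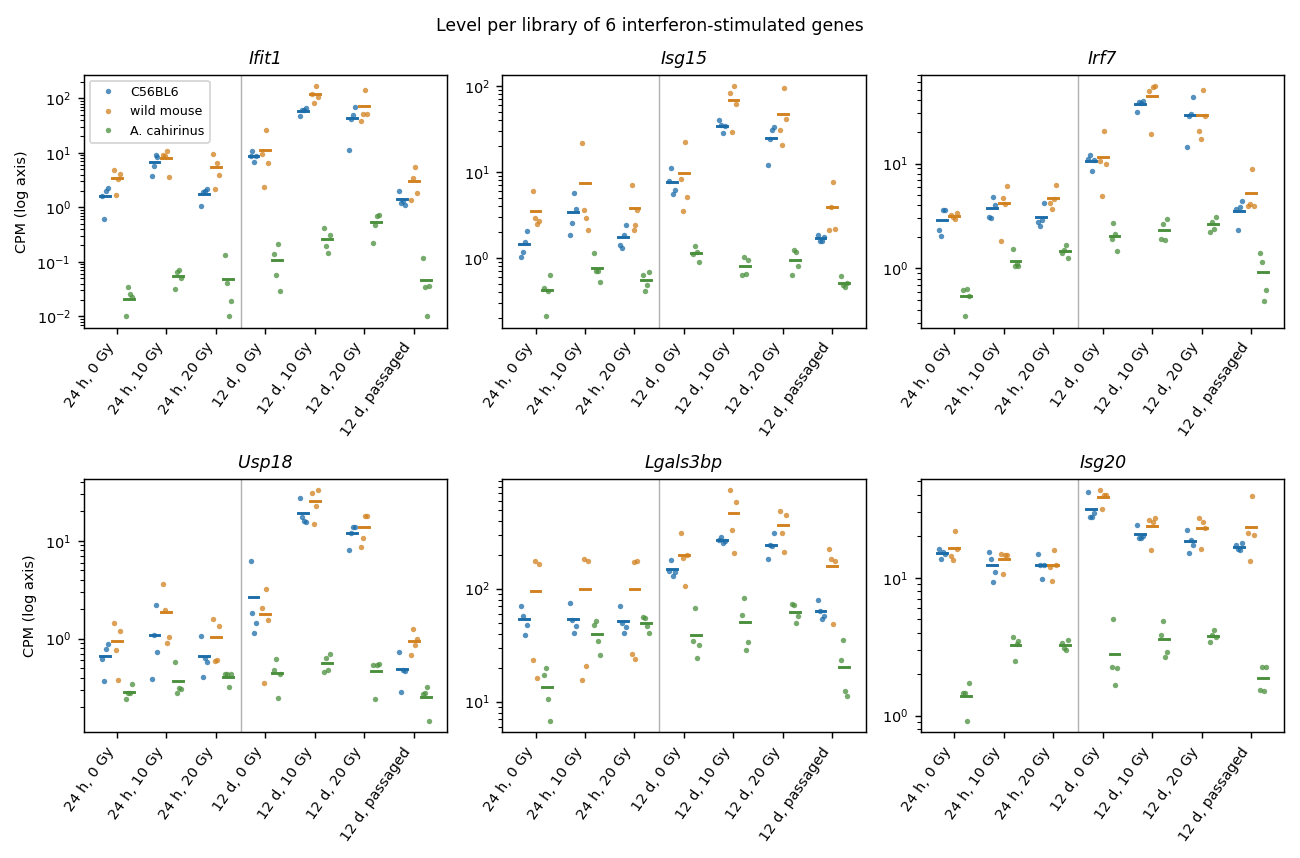
Level (CPM, log axis) of Ifit1, Isg15, Irf7, Usp18, Lgals3bp and Isg20 in every library, with 7 groups along the horizontal axis and the 3 populations in colour; points are libraries and bars group means, and a library without a count sits on the lowest line of its panel. Ifit1 after 10 Gy at 12 d lies between 47 and 168 CPM in both mouse populations, above every other group's libraries except those of 20 Gy, and A. cahirinus stays below 1 CPM.

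Most members were higher after 10 Gy than after 20 Gy in both mouse populations, but most of the differences between doses did not pass the test. In C56BL6 cells 0 of 43 members differed between 20 and 10 Gy at 12 d by edgeR with or without the block and by DESeq2, beside 0% of all 15463 genes (0.226% higher and 0.0711% lower with the block), and 3 had an unadjusted p under 0.05 (18 with the block). Of the 43 fold changes, 5 were above 0 (Oas2, Ifit2, Eif2ak2, Sp100 and Parp14), and the median was -0.182 against 0.00189 for all genes. In wild mice 1 of 44 was above 0 (Ifi27, 0.03 ± 0.13), the median was -0.426 against 0.0018, and 0 were called without the block by edgeR or DESeq2, with 6 at an unadjusted p under 0.05. With the block 4 of 44 were lower at 20 Gy, beside 0.251% of all 14770 genes lower and 0.00677% higher. These were Oas1a (-1.04 ± 0.11, adjusted p = 0.00457), Oas2 (-1.19 ± 0.18, adjusted p = 0.0204), Rsad2 (-1.47 ± 0.24, adjusted p = 0.0283) and Cxcl10 (-1.54 ± 0.26, adjusted p = 0.0317). Each of the 4 was lower in 4 of 4 numbers. With number 1 also left out, 2 members were called, Oas1a (-0.92) and Oas2 (-0.95), beside 0.0538% of all genes.

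In A. cahirinus the order was the other way: 25 of 28 tested members had a higher mean at 20 than at 10 Gy, with a median of 0.205 against 0.00402 for all genes. None was called without the block by edgeR or DESeq2, 1 had an unadjusted p under 0.05, and 0.0147% of all 13564 genes were higher and 0.442% lower. With the block Rtp4 rose (0.5 ± 0.15, adjusted p = 0.0489), beside 8.26% of all genes higher and 9.62% lower. Whether this order differs between the species was not tested.

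**Figure D3:**
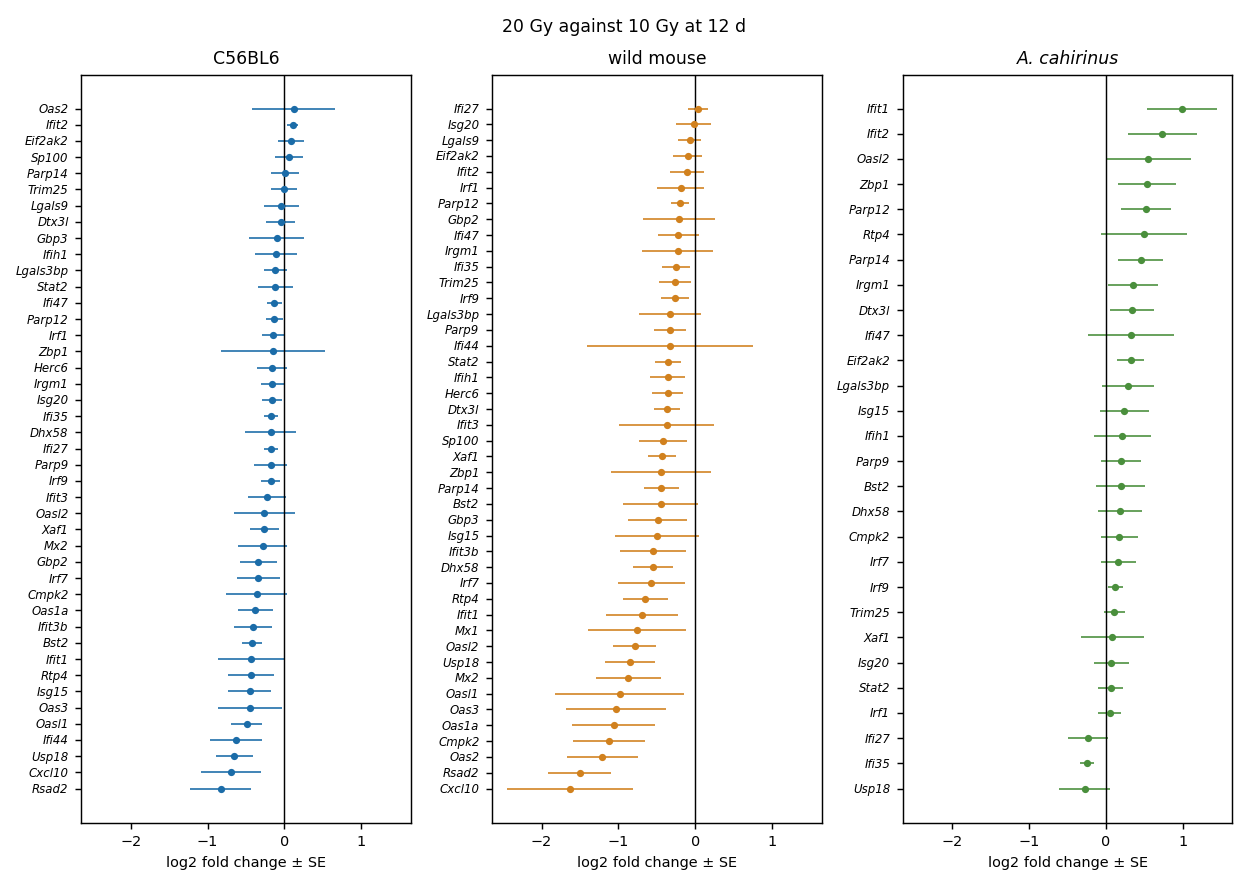
Log2 fold change of 20 Gy against 10 Gy at 12 d (points, bars are SE) for every member that passed the expression filter, ordered by value within each population. Of 43 members in C56BL6 mice 5 lie above 0, of 44 in wild mice 1, and of 28 in A. cahirinus 25; most bars are as long as the distance from 0.

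Passaged cells showed the members at their lowest among the 12 d groups of C56BL6. Against untreated cells that were not labelled passaged, 32 of 38 tested members fell and 0 rose, beside 25.5% and 24.2% of all 14415 genes, and the median was -1.36 against -0.0244. With the block 33 fell, beside 30.8% of all genes lower and 29.3% higher. Ifit1 was at 2.01, 1.21, 1.33 and 1.11 CPM in the passaged libraries and fell by 2.65 (SE 0.23, adjusted p = 0.000205), with every passaged library below every untreated one. Isg15, at 1.58 to 1.86 CPM, fell by 2.18 (SE 0.24), and Irf7, at 2.35 to 4.35 CPM, by 1.58 (SE 0.2). The largest decreases were in Zbp1 (-3.46 ± 0.48), Ifit3b (-3.43 ± 0.26), Gbp3 (-2.83 ± 0.35) and Oasl2 (-2.75 ± 0.26). All 4 transcription factors fell (Stat2 by 1.05, Irf9 by 1.16, Irf1 by 0.99), as did all 4 sensors and all 3 PARP genes, with Parp9 and its neighbour Dtx3l down by 1.85 and 1.73.

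Passage and irradiation were not opposite in direction for every member. Isg20 and Irf1, which fell after irradiation, fell here as well, Isg20 by 0.92 (SE 0.15, adjusted p = 0.00175). Ifit2 (0.05 ± 0.29), Cxcl10 (0.48 ± 0.32), Ifi44 (-0.47 ± 0.73), Herc6 (-0.2 ± 0.17), Ifi47 (-0.22 ± 0.12) and Irgm1 (-0.32 ± 0.19) did not pass the test, while each of these 6 rose after 10 Gy in the same cells. Ifi27, Gbp2, Parp9, Dtx3l and Lgals9, none of which rose after irradiation without the block, all fell in passaged cells (Ifi27 by 1.05, Gbp2 by 1.39 and Lgals9 by 0.8). The passaged and irradiated groups share the untreated libraries as reference. Mki67 had a mean of 192.9 CPM in the passaged group and 22 CPM in the untreated one, and its part in these changes was not tested.

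Set directly against passaged cells, the 20 Gy cells of C56BL6 were higher in 40 of 43 members and lower in 0, beside 20.4% and 21.2% of all 15208 genes (41 and 0 with the block, 28.3% and 27.8%). Oas2 was higher by 6.23 ± 0.74 (75.3-fold, adjusted p = 0.000446), Oas1a by 4.97 ± 0.7, and Ifit1 and Zbp1 both by 4.79 (SE 0.55 and 0.76). The 3 that did not pass were Isg20 (-0.01 ± 0.12), Irf1 (0.26 ± 0.16) and Lgals9 (0.58 ± 0.23). Only 38 members passed the expression filter for passaged against untreated cells, so some of the 43 entered through the 20 Gy libraries alone.

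Passaged wild mouse cells were set against untreated ones in the same way, and the difference from C56BL6 was not tested. Of 38 members 6 fell and 0 rose without the block, beside 5.2% and 5.51% of all 13978 genes: Ifit3b (-2.06 ± 0.46), Oasl2 (-1.65 ± 0.39), Parp9 (-1.17 ± 0.21), Dtx3l (-1.03 ± 0.19), Ifih1 (-0.84 ± 0.2) and Stat2 (-0.64 ± 0.14). With the block 25 fell and 0 rose, beside 16.8% and 15.1% of all genes, and without number 1 as well 9 fell, beside 13.7% of all genes in either direction. These 9 did not include Ifit3b, Oasl2 and Ifih1. DESeq2 called 11, beside 20.7%. Without a block the count was 0 without replicate 1 or 4 (beside 0%), 5 without replicate 2 (2.96%) and 10 without replicate 3 (15.2%). Ifit1 was at 1.37, 3.52, 5.58 and 1.87 CPM, and its replicate 2 library lay above the untreated library of that number. Against passaged cells, 29 of 42 members were higher at 20 Gy and 0 lower, beside 4.39% and 6.1% of all 14384 genes. The largest were Oas2 (5.32 ± 0.5), Ifit3 (4.55 ± 0.74), Ifit1 (4.5 ± 0.66) and Ifit3b (3.88 ± 0.59). This count was 0 without replicate 1 or 4 (beside 0% of all genes), 11 without replicate 2 (1.7%) and 31 without replicate 3 (13.1%). It was 38 with the block, where 19.7% of all genes rose and 18.3% fell, and 37 with the block and without number 1 (28.2%), these 4 genes among them. As 38 members passed the filter for passaged against untreated cells, some of the 42 entered through the 20 Gy libraries alone. In the irradiated wild mouse groups at 12 d the 8 fibroblast markers summed to 8170 to 29800 CPM per library, against 11200 to 66200 CPM untreated. The 7 macrophage markers summed to 25.1 to 46.5 CPM after 10 Gy and 29.1 to 45.9 CPM after 20 Gy, against 15 to 44.9 CPM untreated. Pecam1 had means of 0.0562, 0.458 and 0.809 CPM in the untreated, 10 Gy and 20 Gy groups. Their part in the changes was not tested.

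At 24 h no member passed the test in either mouse population without the block. In C56BL6 cells at 10 Gy, edgeR called 0 of 39 members, beside 0.007% of all 14280 genes higher and 0% lower. DESeq2 called 5, beside 1.04%, and 10 had an unadjusted p under 0.05. With the block 10 rose and 0 fell, beside 5.42% and 6.11% of all genes: Ifit1, Ifit3, Ifit3b, Isg15, Oasl1, Oasl2, Rsad2, Ifih1, Ifi44 and Cxcl10. Ifit1 was at 1.6, 0.614, 1.97 and 2.26 CPM untreated and at 3.72, 5.69, 9.03 and 8.27 CPM after 10 Gy, with no overlap, and its fold change with the block was 2.05 ± 0.23 (adjusted p = 0.000338; 0.214 without). Oasl1 (2.78 ± 0.26), Rsad2 (2.74 ± 0.36) and Cxcl10 (1.96 ± 0.24) rose as far. Ifit3b and Rsad2 did not pass the filter on the untreated 24 h libraries of the mouse populations and entered through the irradiated ones. Irf7 (0.36 ± 0.25), Stat2 (0.17 ± 0.15) and Irf9 (0.01 ± 0.22), which rose at 12 d, did not pass at 24 h, and Lgals3bp had means of 53.5 and 53.9 CPM. Without replicate 1 and without a block, 3 members were called, beside 0.328% of all genes.

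At 20 Gy and 24 h the C56BL6 cells showed little of this. EdgeR without the block and DESeq2 both called 0 of 38 members, with 6 at an unadjusted p under 0.05, beside 0.0826% of all 14526 genes higher and 0.00688% lower. Ifit1 was at 1.06, 1.89, 2.03 and 2.18 CPM, within the untreated range, with a fold change of 0.13 ± 0.39. With the block 2 rose, Oasl1 (1.22 ± 0.3) and Lgals9 (0.16 ± 0.04), and 2 fell, Isg20 (-0.32 ± 0.09) and Parp12 (-0.3 ± 0.07), beside 8.2% and 9.45% of all genes.

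In wild mice at 24 h edgeR called 0 of 42 members at 10 Gy with or without the block, beside 0% of all 14412 genes, while DESeq2 called 1 (beside 0.638%) and 2 had an unadjusted p under 0.05. Across genes, the deviations of its replicate 1 library correlated with those of untreated replicate 1 at 0.47, and the other three pairs at 0.81 to 0.86; without that library edgeR again called 0. At 20 Gy 0 of 41 were called without the block or by DESeq2, with 2 at an unadjusted p under 0.05, beside 0% of all 14473 genes. With the block Ifit3 (1.14 ± 0.25, adjusted p = 0.014) and Oasl2 (0.72 ± 0.19, adjusted p = 0.0299) rose and Isg20 fell (-0.42 ± 0.1, adjusted p = 0.0227), beside 7.36% and 5.19% of all genes. Lgals3bp differed widely between the animals and was at 23.3, 175, 16.2 and 165 CPM in the untreated libraries.

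In A. cahirinus many of these genes were hardly measured. Over the 4 untreated 12 d libraries together, Ifit3, Ifit3b, Oas2, Oas3, Oasl1, Ifi44 and Gbp2 had 0 counts and Cxcl10 had 1, and Ifit1 had 13. The table was counted by gene name on another assembly, so a low count can reflect the gene model or the sequence and was not compared in level with mice. Between 24 and 28 of the 39 members passed the expression filter in each comparison. Per length, the most abundant members in untreated cells at 12 d were Ifi27 at 50.6, Lgals3bp at 16.4, Ifi35 at 12.4 and Bst2 at 9.33 CPM per kb.

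At 24 h the spiny mouse cells had 3 members that rose at 20 Gy, beside 0.89% of all 13146 genes higher and 2.7% lower, and 0 that fell. Lgals3bp was at 17.1, 19.8, 10.5 and 6.79 CPM untreated, at 47.3, 51.2, 34.7 and 25.8 CPM after 10 Gy and at 56.5, 55.1, 47 and 40.4 CPM after 20 Gy. No irradiated library overlapped the untreated ones, and the fold change at 20 Gy was 1.9 ± 0.32 (3.74-fold, adjusted p = 0.0163). Irf7 was at 0.349 to 0.639 CPM untreated, 1.06 to 1.53 CPM after 10 Gy and 1.27 to 1.66 CPM after 20 Gy, and rose by 1.46 ± 0.24 (adjusted p = 0.0145). Isg20, which was lower after irradiation in mice, was at 1.47, 1.47, 0.92 and 1.74 CPM untreated, 2.49 to 3.74 CPM after 10 Gy and 3.02 to 3.52 CPM after 20 Gy, and rose by 1.24 ± 0.21 (adjusted p = 0.0163).

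With the block, 11 of 25 members rose and 0 fell at 20 Gy, beside 13.3% and 10.8% of all genes, and these added Irf1, Ifih1, Bst2, Zbp1, Eif2ak2, Parp14, Dtx3l and Ifi27, by 0.21 to 0.8. At 10 Gy 2 of 25 rose and 0 fell (0.634% and 3.1% of 13083 genes): Isg20 by 1.24 ± 0.22 and Irf7 by 1.16 ± 0.25. DESeq2 called 4, beside 7.72%. With the block 8 rose and 0 fell, beside 15.2% and 12.4% of all genes, among them Lgals3bp (1.64 ± 0.08, adjusted p = 3.82e-08; 0.0557 without). The core factors Stat2 (0.14 ± 0.14) and Irf9 (0.16 ± 0.1) did not pass at 20 Gy. Mki67 had means of 292.5, 76.8 and 74.7 CPM in the 3 groups, and its part in these changes was not tested. The calls at 20 Gy numbered 0 without replicate 1 or 3 (beside 0.0602% and 0.0229% of all genes) and 1 without replicate 4 (1.89%). At 10 Gy they numbered 0 without replicate 1 or 3 (0%) and 1 without replicate 4 (2.51%).

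At 12 d and 20 Gy, 3 of 27 members rose and 1 fell in A. cahirinus, beside 13.8% and 18.1% of all 13462 genes. Rtp4 was at 1.13, 3.24, 1.34 and 0.753 CPM untreated and at 4.51, 11.5, 3.17 and 4.36 CPM after 20 Gy, higher in 4 of 4 numbers with ranges that overlap (1.87 ± 0.57, adjusted p = 0.0369). Eif2ak2, the kinase PKR that halts translation, was at 7.21 to 9.9 CPM untreated and 10.2 to 17.9 CPM after 20 Gy and rose by 0.75 ± 0.19. Ifit2 went from 16 counts over the 4 libraries to 90 and rose by 2.35 ± 0.62 (adjusted p = 0.0208). Ifi35 was at 18 to 19.2 CPM untreated and 13 to 15.2 CPM after 20 Gy and fell by 0.39 (SE 0.08, adjusted p = 0.00733). Isg15, at 0.897 to 1.37 CPM untreated and 0.631 to 1.23 CPM after 20 Gy, stood at -0.24 ± 0.28 (adjusted p = 0.551).

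With the block 9 rose and 2 fell, beside 23.5% and 25.7% of all genes. The added ones were Lgals3bp (0.76 ± 0.16), Parp9, Parp12, Parp14, Dtx3l and Ifi47 (higher) and Stat2 (-0.25 ± 0.08, lower). The count without the block was 1 without replicate 1 (beside 12% of all genes), 12 without replicate 2 (49.4%), 0 without replicate 3 (12.3%) and 3 without replicate 4 (17.5%). At 10 Gy edgeR called 0 of 25, DESeq2 1 (beside 11.6%), and 4 had an unadjusted p under 0.05, beside 1.29% and 1.58% of all 13215 genes. With the block Rtp4 (1.39 ± 0.24), Lgals3bp and Eif2ak2 rose and Irf9 (-0.31 ± 0.08), Stat2 (-0.31 ± 0.07), Ifih1 (-0.71 ± 0.18) and Trim25 fell, beside 14.2% and 13.4%. In these cells the 8 fibroblast markers summed to 29100 to 32900 CPM per library untreated and 19200 to 28300 CPM after 20 Gy. The 6 of 7 macrophage markers with a row in this species, all but Lyz2, summed to 3.76 to 4.81 and 4.67 to 9.27 CPM. Itgam among them had means of 1.38 and 3.3 CPM. The 4 endothelial markers summed to 0.599 to 1.9 and 2.98 to 4.89 CPM. Pecam1 among them had means of 0.164 and 1.82 CPM, and Mki67 had means of 58.4 and 4.4 CPM in the same groups. Their part in the changes was not tested.

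Passaged A. cahirinus cells had 5 of 24 members lower and 0 higher, beside 13.6% and 12.1% of all 12992 genes. They were Bst2 (-1.71 ± 0.16, adjusted p = 0.000772), Ifi47 (-1.54 ± 0.4), Irf7 (-1.18 ± 0.38), Isg15 (-1.15 ± 0.24) and Irf9 (-0.3 ± 0.09). With the block 10 fell and 1, Irf1, rose (0.44 ± 0.12), beside 26.3% and 23.2%. The count without the block was 1 without replicate 1 or 3 (beside 6.03% and 6.14% of all genes), 8 without replicate 2 (38.8%) and 2 without replicate 4 (10.7%). Against passaged cells the 20 Gy cells were higher in 12 of 25 and lower in 2, beside 19.5% and 23% of all 13338 genes (15 and 2 with the block, 28% either way). Ifit2 (3.5 ± 0.62), Rtp4 (2.96 ± 0.62), Ifi47 (2.56 ± 0.49) and Lgals3bp (1.62 ± 0.37) were the highest, and Irf1 (-0.41 ± 0.13) and Ifi35 (-0.29 ± 0.09) were lower. That count was 7 without replicate 1 (beside 20% of all genes), 10 without replicate 3 (22.6%) and 8 without replicate 4 (25.8%).

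The difference between species in the 20 Gy change was tested as an interaction on symbols found once in each table, with scaling inside each table. Of the members tested at 12 d, 27 passed the expression filter in A. cahirinus alone, and 12 (against C56BL6) and 11 (against wild mice) entered only through the mouse libraries. At 24 h 25 passed in A. cahirinus alone and 12 entered only through the mice. Those that entered through the mice, Ifit1, Ifit3 and Cxcl10 among them in each comparison, had low counts in A. cahirinus. Every member called without the block was one that passed in A. cahirinus alone. Calls with the block were not split in this way, so they can include members with low counts there. For Ifit3b at 12 d against C56BL6 the SE was 795.63, so its difference could not be estimated. At 12 d, against C56BL6, 1 of 39 members had a higher change in A. cahirinus and 3 a lower one, beside 8.11% and 10.7% of all 14101 genes. The change of Isg15 was lower by 1.83 (SE 0.46, adjusted p = 0.0144), that of Bst2 by 1.29 (SE 0.35) and that of Ifi35 by 0.86 (SE 0.17, adjusted p = 0.00338), while that of Isg20 was higher by 1.32 ± 0.4 (adjusted p = 0.0324). With the block 4 were higher and 8 lower, beside 17.6% and 20.4%, and DESeq2 called 7, beside 24.7%. Of the 27, 4 were called, beside 19.7% of all genes that passed in A. cahirinus, so the members' share is no larger than that of all genes. The count without the block was 6 without replicate 1 (beside 15.2%), 0 without replicate 3 (4.33%) and 1 without replicate 4 (6.7%).

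Against wild mice at 12 d, 4 of 38 members had a lower change in A. cahirinus and 0 a higher one, beside 2.18% and 1.17% of all 13888 genes. They were Usp18 (-2.82 ± 0.7), Dhx58 (-1.62 ± 0.4), Ifi35 (-1.01 ± 0.25) and Stat2 (-0.91 ± 0.24, adjusted p = 0.049). Of the 27 members that passed in A. cahirinus alone, these 4 were called, beside 3.48% of all genes that passed there. With the block 13 of the 38 were lower and 1 higher (13.1% and 10.2% of all genes), Isg15 among them (adjusted p = 0.000488; -2.44 ± 0.77 and adjusted p = 0.0955 without). These calls with the block take wild numbers 1 and 4 as separate animals and were not repeated without number 1. Without the block the count was 0 without replicate 1 or 4 (beside 0% and 0.036%) and 2 without replicate 3 (1.25%).

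At 24 h, against C56BL6, the change of Lgals3bp (1.98 ± 0.41, adjusted p = 0.0162) and of Isg20 (1.55 ± 0.23, adjusted p = 0.00294) was higher in A. cahirinus, which makes 2 of 37 members higher and 0 lower, beside 0.199% and 1.89% of all 13589 genes. Of the 25 members that passed in A. cahirinus alone, these 2 were called, beside 2.22% of all genes that passed there. With the block 9 were higher and 0 lower, beside 8.8% and 7.98% of all genes, Irf7 among them (adjusted p = 0.00264; 1.37 ± 0.35 and 0.0642 without). The count was 0 without replicate 3 (beside 0%) and 1 without replicate 1, 2 or 4 (1.44%, 1.51% and 1.13%). Against wild mice edgeR called 0 of 37 without the block, DESeq2 1 (beside 0.648%), and 2 had an unadjusted p under 0.05, beside 0% of all 13584 genes. With the block 4 were higher and 0 lower, beside 2.92% and 4.34%: Lgals3bp (1.83 ± 0.19), Isg20 (1.67 ± 0.18), Bst2 (0.93 ± 0.2) and Irf1 (0.51 ± 0.14). Between wild and C56BL6 mice 0 of 42 differed at 24 h by edgeR with or without the block and by DESeq2, with 1 at an unadjusted p under 0.05, beside 0% of all 15612 genes (0.544% and 0.102% with the block).

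Untreated wild and C56BL6 cells were compared in level, since both were counted in one table. Reads of both were aligned to GRCm39, and the part of sequence differences of wild mice from that reference was not tested. At 24 h 1 of 37 members differed, beside 3.32% of all 14317 genes higher and 2.38% lower in wild mice: Gbp2, a guanylate-binding GTPase, was higher in wild mice by 2.42 ± 0.29 (adjusted p = 0.00243), with means of 49 and 9.65 CPM. DESeq2 called 9, beside 12.3%, and leaving out 1 library at a time left 1 to 3, beside 2.71% to 6.33% of all genes. At 12 d edgeR called 0 of 39, beside 1.64% and 1.29% of all 14238 genes, DESeq2 called 2 (beside 7.59%), and 3 had an unadjusted p under 0.05. Gbp2 was then at 27.8 to 155 CPM in wild mice around a mean of 68.9 CPM and at a mean of 27 CPM in C56BL6.

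The other genes of the pathway were read from lists of 59 further symbols, grouped by role. None of the 10 interferon ligands passed the expression filter in any comparison, and Ifnb1 had means of 0, 0.00938 and 0.0154 CPM in the untreated, 10 Gy and 20 Gy C56BL6 groups at 12 d, under the floor of 3 counts. Of 6 receptor genes, 1 fell and 0 rose in C56BL6 at each dose at 12 d (4 fell with the block), beside the shares of all genes given above for these comparisons (10.6% and 13.6% lower, 19.7% and 24.3% with the block), and Ifngr1, a chain of the gamma-interferon receptor, fell by 0.34 at 20 Gy (SE 0.07, adjusted p = 0.0118). Passaged C56BL6 cells had 3 of 6 lower, beside 25.5% of all genes, among them Ifnar2, a chain of the type I receptor, by 1.2 (SE 0.2). Among 5 inhibitors of signalling, Socs1, which blocks the receptor kinases, fell at 12 d by 1.24 at 10 Gy (SE 0.31) and by 1.49 at 20 Gy (SE 0.31, adjusted p = 0.0115) in C56BL6, and by 2.33 on passage (SE 0.29). In A. cahirinus at 12 d and 20 Gy, Socs3, a relative of Socs1, fell by 1.79 (SE 0.19, adjusted p = 0.000534) and Ptpn2 by 0.3 (SE 0.1, adjusted p = 0.044). Socs1, Ptpn6 and Pias1 did not pass there without the block. Of the receptors only Ifnlr1 passed, and it rose by 1.81 ± 0.37 (adjusted p = 0.00787). Of the other IRF genes tested only Irf2 passed, and it fell by 0.67 (SE 0.14). In that comparison 13.8% of all genes were higher and 18.1% lower.

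Another 27 genes are further interferon-induced genes. In C56BL6 cells at 12 d and 10 Gy 10 of 26 tested rose and 0 fell, beside 10.3% and 10.6% of all genes. At 20 Gy 5 of 26 rose and 0 fell, beside 13% and 13.6%, and on passage 0 of 24 rose and 20 fell, beside 24.2% and 25.5%. Oas1g, an OAS1 copy, rose by 4.98 ± 0.54 at 10 Gy and 4.04 ± 0.59 at 20 Gy, and Adar, which edits double-stranded RNA, and Pml both rose by 0.67 at 20 Gy. Iigp1, a GTPase, fell by 4.42 on passage (SE 0.59). In wild mice 2 of 26 rose at 10 Gy without the block (Helz2 by 0.8, Oas1b by 1.99) and 18 with it, beside 0.174% and 5.96% of all genes, and 0 of 25 at 20 Gy without the block and 12 with it, beside 0.0278% and 7.66%. These wild mouse calls take numbers 1 and 4 as separate animals and were not read without number 1. In A. cahirinus 4 of 15 rose and 2 fell at 12 d and 20 Gy, beside 13.8% and 18.1%, with Znfx1, an antiviral helicase, by 0.83 ± 0.1 and Samd9l by 1.38.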

How the data were processed

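Reads were trimmed with Trim Galore, aligned with HISAT2 and counted with featureCounts, with GRCm39 for mouse, per the submitters' processing notes; the aligner settings are not given in the sources used here. The deposited tables hold raw counts per gene. Per the file headers, featureCounts 2.0.3 counted fragments with both ends mapped, using Ensembl release 108 for mouse and gene names on AcoCah2 for A. cahirinus. The headers show no strand, multi-mapping or overlap option, so antisense reads count for a gene, and reads in overlapping genes are left out, which can lower members with overlaps or near-identical copies. All 56 mouse and 28 A. cahirinus columns were used.

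The counts were fitted with edgeR 4.0.16 in R 4.3.3 (filterByExpr, TMM, quasi-likelihood test, Benjamini-Hochberg over all genes tested, threshold 0.05), each comparison of 2 groups on its own 8 libraries and each interaction on its 4 groups. The 29 comparisons included 6 interactions: 2 between the mouse populations on the mouse table, and 4 with A. cahirinus on 18109 symbols found once in each table. SE is the fold change over the root of the F statistic. Same-numbered libraries share an animal code, and their deviations correlated at 0.42 to 0.98 (other numbers averaged -0.31 to -0.12, with single pairs up to 0.7 in C56BL6 and 0.72 in wild mice). Replicates differed by 7.95 to 573 times sampling noise over 126 pairs, so no 2 libraries held the same counts within sampling noise. Alternatives were DESeq2 1.42.0, RLE size factors, no expression filter, the replicate block, each replicate left out and, chosen after seeing the data, the block without wild mouse number 1. The fit was tested on simulated data. The members and gene lists were chosen with earlier results of these data known. All 44 members may be named: a panel of 12 (Irf1, Irf7, Irf9, Stat2, Ifit1, Ifit3, Isg15, Oasl2, Usp18, Cxcl10, Gbp2 and Lgals3bp) and, per comparison, the 4 largest called changes in each direction. Other members named were chosen by role. One gene of the pathway lists is not reported here.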

Additional observations from a re-analysis of the deposited data

Results flagged for a closer look

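Within groups of 4 libraries, the highest or lowest one was set against the others for the panel genes, in 186 groups with a mean of at least 1 CPM. In 13 of them one library stood apart beyond the 95% critical value of Dixon's test. Chance alone gives such a gap in about 1 group of 20.

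In wild mice at 12 d, replicate 3 after 20 Gy was far above the others for Ifit1 (143 CPM) and Ifit3 (104 CPM), and passaged replicate 3 was high for Irf7 (8.96 CPM). Replicate 2 after 10 Gy was low for Irf7 (19.2 CPM). Stat2 was low in wild replicate 1 after 20 Gy at 12 d (65.8 CPM), after 10 Gy at 24 h (15.3 CPM) and after 20 Gy at 24 h (16.8 CPM), although the replicate 1 libraries of the 2 times were separated by 29 genes. Isg15 was high in wild replicate 1 at 24 h, untreated (5.95 CPM) and after 10 Gy (21.6 CPM), and Irf1 in wild replicate 2 after 20 Gy at 24 h (20.9 CPM). In A. cahirinus, replicate 1 after 10 Gy at 24 h was high for Irf1 (13.3 CPM) and Irf7 (1.53 CPM). Usp18 was high in untreated C56BL6 replicate 1 at 12 d (6.2 CPM), the animal whose libraries held keratins.

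The change at 20 Gy differed between species in 10 interaction tests of edgeR without a block, with Ifi35 at 12 d called against both mouse populations. At 24 h, A. cahirinus exceeded C56BL6 by 1.55 on the log2 scale for Isg20 and by 1.98 for Lgals3bp, beside 0.199% of all genes higher and 1.89% lower. At 12 d the difference from C56BL6 was 1.32 for Isg20, -1.29 for Bst2, -0.86 for Ifi35 and -1.83 for Isg15, beside 8.11% of all genes higher and 10.7% lower, which is no smaller than the share of the members. The difference from wild mice at 12 d was -1.62 for Dhx58, -1.01 for Ifi35, -0.91 for Stat2 and -2.82 for Usp18, beside 1.17% and 2.18%. The 2 count tables come from different assemblies, and their part in these differences was not tested.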

How the results depend on the processing

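Values are counts of members called in either direction by edgeR unless another tool is named, and the cause of each shift was not tested. Members called with or without the block were followed under each alternative that gave a value, and none of these changed direction. Members not called were not followed. With the replicate block, calls in C56BL6 went from 0 to 4 at 24 h and 20 Gy, from 0 to 10 at 24 h and 10 Gy, and from 22 to 35 at 12 d and 20 Gy. In wild mice they went from 0 to 3 at 24 h and 20 Gy, from 1 to 31 at 12 d and 20 Gy, from 6 to 38 at 12 d and 10 Gy, from 0 to 4 for 20 against 10 Gy, and from 6 to 25 on passage. With the block and without number 1, the 12 d counts in wild mice were 17 at 20 Gy, 29 at 10 Gy, 2 between doses and 9 on passage. In A. cahirinus the block took 24 h calls from 3 to 11 at 20 Gy and from 2 to 8 at 10 Gy, 12 d calls from 4 to 11 at 20 Gy and from 0 to 7 at 10 Gy, 20 against 10 Gy from 0 to 1 and passage from 5 to 11. It took the interactions of A. cahirinus from 2 to 9 (C56BL6, 24 h), 0 to 4 (wild, 24 h), 4 to 12 (C56BL6, 12 d) and 4 to 14 (wild, 12 d). The block moved no other count by over 1.5 times.

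DESeq2 called 5 in C56BL6 at 24 h and 10 Gy, 1 in wild mice there, 16 and 30 in wild mice at 12 d (20 and 10 Gy) and 11 on passage, 4 in A. cahirinus at 24 h and 10 Gy and 1 at 12 d and 10 Gy, 1 for the A. cahirinus and wild interaction at 24 h, 7 for A. cahirinus and C56BL6 at 12 d, and 9 and 2 for untreated wild against C56BL6 at 24 h and 12 d. RLE size factors gave 1 in C56BL6 at 24 h and 10 Gy and 3 on passage in A. cahirinus. Without the expression filter these 2 were 2 and 3, passage in wild mice was 2, A. cahirinus was 1 at 24 h and 10 Gy and 7 at 12 d and 20 Gy, and the A. cahirinus and wild interaction at 12 d was 2.

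Leaving out each replicate gave 0 to 3 in C56BL6 at 24 h and 10 Gy, 1 to 34 at 12 d and 20 Gy and 11 to 40 at 12 d and 10 Gy. In wild mice it gave 0 to 3 at 12 d and 20 Gy, 0 to 10 at 10 Gy, 0 to 10 on passage and 0 to 31 for 20 Gy against passaged. In A. cahirinus it gave 0 to 3 at 24 h and 20 Gy, 0 to 2 at 10 Gy, 0 to 12 at 12 d and 20 Gy, 0 to 1 at 10 Gy, 1 to 8 on passage and 7 to 16 for 20 Gy against passaged. The interactions of A. cahirinus ranged from 0 to 1 (C56BL6, 24 h), 0 to 6 (C56BL6, 12 d) and 0 to 4 (wild, 12 d), and untreated wild against C56BL6 from 1 to 3 at 24 h and 0 to 1 at 12 d. The 4 libraries a group and, in A. cahirinus, counts near 0 limit what could be called.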
